A study of Mus musculus with 4 samples.

Results

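This report describes AGO2-bound 3' UTR regions of newborn mouse brain whose sequence can pair with the seed of the miR-15/16 family. AGO2 is the Argonaute protein that holds a miRNA against its target RNA, and eCLIP crosslinks a protein to its RNA, immunoprecipitates (IP) it and sequences the bound fragments. The labels list 4 whole-brain libraries of C57BL/6 pups at P0, the day of birth (postnatal day 0). They are an AGO2 IP and an input from FMR1 ko mice, and the same from wild-type mice, with 1 IP and 1 input of each genotype. The titles name Jax for both wild-type libraries and for the FMR1 ko input. Fmr1 encodes FMRP, an RNA-binding protein of neurons, and the allele is not given in the sources used here. The number of brains in a library is likewise not given, and no value used here checks the genotype, so the first IP is called the knockout-labelled IP. With 1 IP library per genotype, every difference below is between these libraries and had no replicate check.

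A region was taken when its midpoint lay in an annotated 3' UTR on its own strand, outside coding sequence, and its sequence with 25 bases on each side held TGCTGCT on the transcript strand. These 7 letters pair with bases 2 to 8 of mature miR-16-5p, a match known as a 7mer-m8 site. The rule uses position and sequence, not the scores. It gave 370 regions of 336 genes among 86106 regions in the knockout-labelled IP, and 266 regions of 231 genes among 46860 in the wild-type IP. Of all 3' UTR regions these were 3.51% in the knockout-labelled IP (370 of 10556, exact 95% interval 3.16 to 3.87) and 3.12% in the wild-type IP (266 of 8520, 2.76 to 3.51). Another table, deposited for the whole series, compares the IPs, wild type over knockout-labelled, on regions that are nearly all those of the wild-type file, and it holds the same 266 regions.

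The miR-15/16 family is a group of miRNAs that share a seed, the stretch near the 5' end that AGO2 presents for pairing to target mRNAs. Its members are known for restraining cell division and survival, with cyclins, Cdc25a and Bcl2 among the classical targets, and miR-195 and miR-497 belong to it. In neural tissue miR-15/16 members have been linked to the exit of progenitors from the cell cycle. A seed site in a 3' UTR typically lowers the stability or the translation of the mRNA.

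The mature miRNAs that can read the site are shown first, from RefSeq (GRCm38.p6), since all sites below are defined by them. Capitals mark bases 2 to 8, the seed.
miR-15a-5p: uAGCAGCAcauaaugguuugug
miR-15b-5p: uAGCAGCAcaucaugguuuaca
miR-16-5p: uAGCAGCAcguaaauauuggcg
miR-195a-5p: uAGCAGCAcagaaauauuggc
miR-322-5p: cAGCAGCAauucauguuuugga
miR-497a-5p: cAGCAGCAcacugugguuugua
miR-103-3p: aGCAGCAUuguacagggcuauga
miR-107-3p: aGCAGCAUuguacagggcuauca
The first 6 share the seed AGCAGCA. In all, 11 miRNA genes in the table carried it. miR-103 and miR-107 have the seed GCAGCAU, which is shifted by 1 base. Their site, ATGCTGC, overlaps a miR-15/16 site wherever an A precedes TGCTGCT.

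Each miRNA gene of the family with a region had strong AGO2 signal in both IPs. The Mir16-1 hairpin had 365 IP reads against at most 1 input read in the knockout-labelled pair, a log2 of 9.45 over input, and a log2 of 11.60 in wild type. Mir15b had 203 IP reads in the knockout-labelled IP and 257 in the wild-type IP. Mir16-2 had 120 and 289 IP reads, Mir322 63 and 75, Mir195a 41 and 64, and Mir497 22 and 60, the knockout-labelled IP first in each pair. In the authors' deposited table of wild type over knockout-labelled, the log2 was between 1.42 at Mir322 and 2.57 at Mir497. No region lay on Mir15a. These counts lie well above those of 3' UTR regions without the site, whose median was 4 IP reads in both libraries.

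Sites of 11 of the 12 genes with the strongest regions shared by both IPs are shown next, because the values that follow rest on them. Each line gives the transcript strand 5' to 3' in mm10, with the TGCTGCT site in capitals between 14 bases before it and 8 after.
Dvl2 (chr11:70012094-70012122, plus strand): cccactgccccaggTGCTGCTgggggttg
Atxn7l3 (chr11:102290852-102290880, minus strand): ggtgagagggacggTGCTGCTttatttga
Arhgdia (chr11:120579013-120579041, minus strand): ctccagtgtcacatTGCTGCTtctgcctg
Tmod2 (chr9:75569576-75569604, minus strand): cctggaggggcaggTGCTGCTcacccatc
Dynll2 (chr11:87981019-87981047, minus strand): tcttgggtggtgggTGCTGCTgtaggagg
Vat1 (chr11:101459853-101459881, minus strand): ccctgggcctaccaTGCTGCTtttgtgcc
Amotl1 (chr9:14542007-14542035, minus strand): attttcctattcttTGCTGCTtaaacttt
Dyrk1b (chr7:28187001-28187029, plus strand): cccttgactggactTGCTGCTacccagct
Pld3 (chr7:27532157-27532185, minus strand): ctccactatactccTGCTGCTacctccac
Pim1 (chr17:29495205-29495233, plus strand): ctttacctcttaccTGCTGCTtctcaaac
Zfp651 (chr9:121768878-121768906, plus strand): ctcccgccgctcccTGCTGCTcccagccg
An A after the site, as in Dyrk1b and Pld3, stands opposite the first base of the miRNA and makes the match an 8mer. The Vat1 site alone among these follows an A and so also holds the miR-103 and miR-107 site. None of these sites lies in a triplet run of more than 9 bases. Which RNA gave the reads at the Dvl2 site was not tested.

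The regions carry the authors' own scores, a −log10 p and a log2 of IP over size-matched input. Reads were recovered from these scores as whole numbers, with 1 input read standing for 0 or 1. A region counted as enriched if its −log10 p and its log2 were each at least 3. The depth of the libraries is not in the files, but the scores fix its ratios. Input depth over IP depth was 1.918 in the knockout-labelled pair and 6.337 in the wild-type pair. Between the IPs, knockout-labelled over wild type, the ratio of depths was 2.278. With at most 1 input read, a region therefore needed 9 IP reads to be enriched in the knockout-labelled pair but 5 in the wild-type pair, so enriched shares are read within a library and not between the genotypes. As a check of the tissue, 3' UTR regions were found for 4 of 5 neuronal markers in the knockout-labelled IP and 3 of 5 in wild type. The counts were 2 and 4 of 5 for neural progenitors, 3 and 3 of 4 for astrocytes, 3 and 0 of 4 for the oligodendrocyte lineage, and 2 and 0 of 3 for endothelium. For red cells they were 0 and 1 of 3, and for microglia 0 of 3 in both. The lists thus differed between the libraries, and their part in the results below was not tested. Fewer cells of a type and less RNA per cell cannot be told apart in whole brain.

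Regions with the seed site were enriched over input more often than other 3' UTR regions in both libraries. In the knockout-labelled IP 56 of 370 were enriched, 15.1% (exact 95% interval 11.6 to 19.2), against 8.81% of 3' UTR regions without the site (8.26 to 9.37) and 3.08% of all regions. In wild type 138 of 266 were enriched, 51.9% (45.7 to 58), against 36.8% of 3' UTR regions without the site (35.7 to 37.8) and 24.1% of all regions. The intervals cover counting error only, and neighbouring regions can share reads. Seen from the other side, the site was held by 5.88% of enriched and 3.27% of other 3' UTR regions in the knockout-labelled IP, and by 4.35% and 2.39% in wild type.

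Letters that cannot pair with the seed did not stand out in this way. The same 7 letters read on the opposite strand, AGCAGCA, were present in 1.16% of 3' UTR regions in the knockout-labelled IP and in 0.962% in wild type. Of these, 5.74% were enriched in the knockout-labelled IP (7 of 122, 2.34 to 11.5) and 36.6% in wild type (30 of 82, 26.2 to 48.0), near the values of regions without the site. Sites of other miRNAs abundant in brain reached similar or higher shares. For let-7 the enriched share was 27.4% in the knockout-labelled IP and 55.8% in wild type, for miR-30 19.3% and 53.1%, and for miR-9 17.2% and 47.5%. Only 8 regions in the knockout-labelled IP and 6 in wild type held a let-7 site as well, 10 and 4 a miR-30 site, and 11 and 7 a miR-9 site. Among regions with none of these 3 sites, 14.6% of those with the miR-15/16 site were enriched in the knockout-labelled IP, against 7.83% without it. In wild type the shares were 51.6% with it and 35.5% without it.

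**Figure D1:**
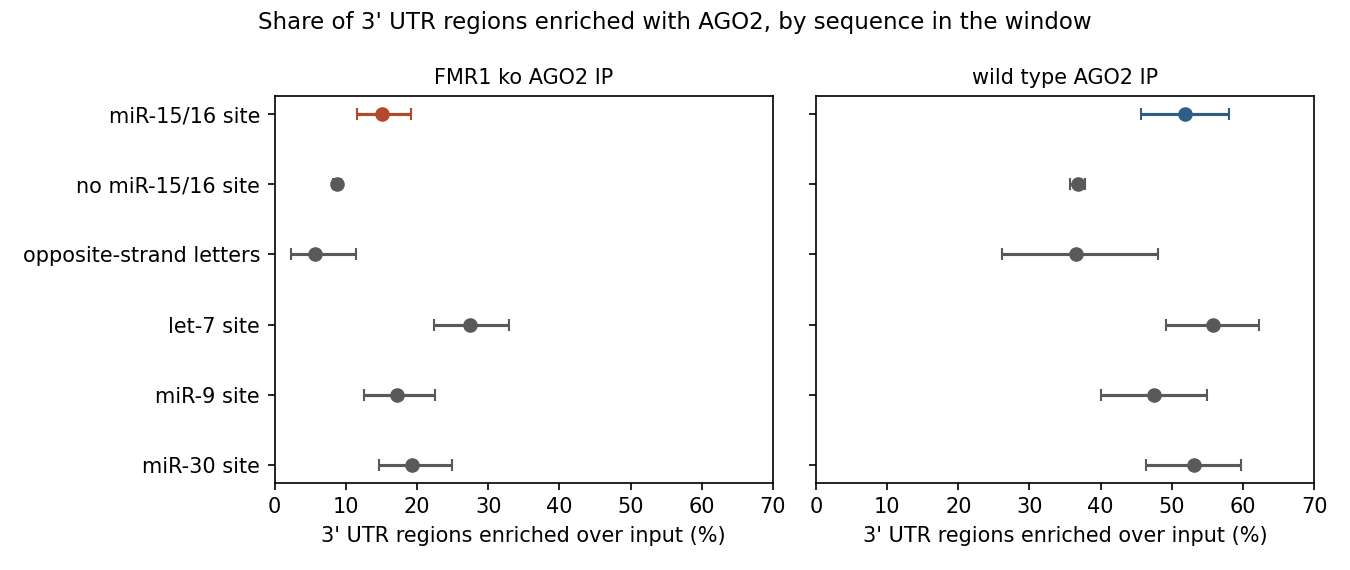
Percent of 3' UTR regions enriched over input in the FMR1 ko AGO2 IP (left) and the wild-type AGO2 IP (right), by the sequence held within 25 bases of the region. Points are shares and bars exact 95% intervals for counting error; regions with a miR-15/16 site (15.1% and 51.9%) lie above those without (8.81% and 36.8%), while opposite-strand letters do not.

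Region length and read number moved with the site. The median region with the site was 54 bases long, against 46 without it, in the knockout-labelled IP, and 48 against 37 bases in wild type. The median IP reads were 5 against 4 in each library. Within each of 3 bands of length the regions with the site had the higher enriched share, with intervals that overlapped except for the longest wild-type regions. In regions of 70 bases or more it was 33.7% with the site and 26.3% without in the knockout-labelled IP, and 97.6% and 81.2% in wild type. From 40 to 69 bases it was 9.83% and 7.6% in the knockout-labelled IP, and 55.7% and 46.9% in wild type. Under 40 bases it was 5.21% and 2.74% in the knockout-labelled IP, and 28.4% and 21.9% in wild type. Within bands of IP reads the difference was smaller. With 10 reads or more, 70.8% of 72 regions with the site were enriched in the knockout-labelled IP, against 65.1% without it, and in wild type all 50 were, against 89.3%. With 5 to 9 reads the shares were 4.0% and 4.1% in the knockout-labelled IP, where a region needed 9 reads to be enriched and shares in this band are low by construction. In wild type they were 96.7% and 91.5%. With 4 reads or fewer none was enriched in either library, with or without the site. Sites thus went with more IP reads per region, and the part of read number in the enriched share was not tested further.

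The place of the site within the region is described next. The window keeps every site within 25 bases of its region, so short distances are built in. The site lay wholly inside in 61.9% of knockout-labelled and 61.3% of wild-type regions, and otherwise in the 25 bases on either side. Regions with the site inside were enriched in 18.8% of cases in the knockout-labelled IP, against 9.22% with the site beside the region. In wild type these shares were 58.3% and 41.7%. With the site inside the intervals were 13.9 to 24.4 in the knockout-labelled IP and 50.3 to 65.9 in wild type. With the site beside the region they were 5.0 to 15.3 and 32.1 to 51.9, and so overlapped the former in both libraries. The intervals with the site beside the region hold the 8.81% and 36.8% of 3' UTR regions without the site. Region length was not held equal in this comparison. The site's centre was within 10 bases of the midpoint in 34.3% of knockout-labelled and 37.6% of wild-type regions, and within 20 bases in 58.1% and 64.7%. For the opposite-strand letters, found with the same window, 45.1% lay wholly inside in the knockout-labelled IP and 42.7% in wild type, and 44.3% and 58.5% lay within 20 bases of the midpoint. Within 10 bases of the midpoint lay 20.5% of these letters in the knockout-labelled IP and 32.9% in wild type. The intervals for the site and for the opposite-strand letters overlapped in both libraries within 20 bases, and did not overlap for the shares inside. Within 10 bases they overlapped in wild type but not in the knockout-labelled IP. The median place of the site was 2 bases after the midpoint in the knockout-labelled IP and 1 base before it, −1, in wild type. At the edge of the window, regions whose nearest site ended 16 to 25 bases outside were enriched in 9.09% of 44 cases in the knockout-labelled IP and 44.1% of 34 in wild type. Just beyond the window, at 26 to 35 bases, the shares were 11.6% of 43 and 33.3% of 36.

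**Figure D2:**
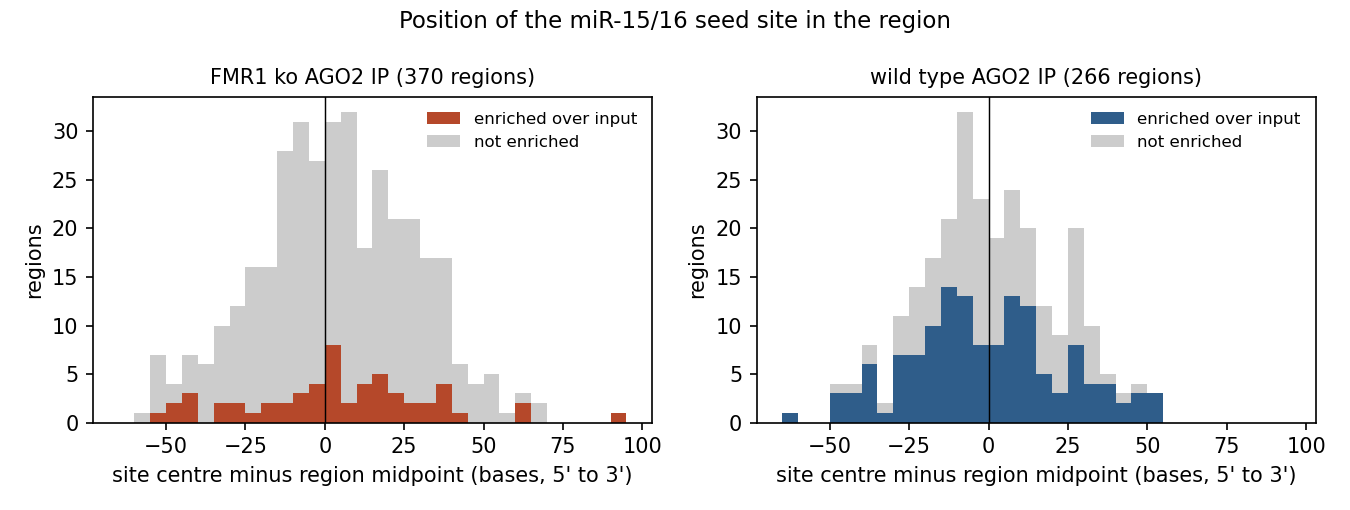
Number of regions by distance from the region's midpoint to the centre of its miR-15/16 site, in bases along the transcript, for the FMR1 ko AGO2 IP (left) and the wild-type AGO2 IP (right). Coloured parts are enriched over input and grey parts are not; 58.1% and 64.7% of sites lie within 20 bases of the midpoint.

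The kind of seed match is given next. An A opposite base 1 of the miRNA, the 8mer, was present in 63 knockout-labelled and 57 wild-type regions. Of these 12.7% were enriched in the knockout-labelled IP, against 15.6% of the other regions with a site, and 59.6% against 49.8% in wild type. The intervals overlapped in both libraries. A miR-103 and miR-107 site overlapped in 59 and 55 regions, which were enriched in 18.6% and 43.6% of cases, against 14.5% and 54.0% for regions with no overlap. Regions with 2 or more sites numbered 39 in the knockout-labelled IP and 30 in wild type, and 17.9% (7 of 39) and 21 of 30 were enriched, against 14.8% and 49.6% with 1 site. Regions with the site held fewer A and U bases than other 3' UTR regions, a median of 47.6% against 52.0% in the knockout-labelled IP and 47.7% against 53.1% in wild type. They also lay somewhat closer to the stop codon, a median of 738 against 874 bases in the knockout-labelled IP and 665 against 850 in wild type. A predicted G-quadruplex, a fold of guanine runs that FMRP is known to bind, stood within 50 bases of 11 knockout-labelled and 5 wild-type regions, which is 2.97% against 2.69% without the site and 1.88% against 3.2%.

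The site TGCTGCT is itself a stretch of the triplet CTG, so runs of period 3 through the site were measured. A run of 12 bases or more, 4 units, held the site in 13 of 370 knockout-labelled regions (3.51%, 1.88 to 5.93) and in 8 of 266 wild-type regions (3.01%, 1.31 to 5.84). In the annotated 3' UTRs as a whole, 448 of 6186 sites lay in such runs, 7.24%, but many share a run and they form 135 runs. Of these runs 12 had a region in the knockout-labelled IP (8.89%) and 7 in wild type (5.19%). Sites outside runs were covered in 6.43% of cases in the knockout-labelled IP and 4.5% in wild type. Triplet runs are therefore a small part of the regions with a seed site. In the knockout-labelled IP, 15.4% of the regions in a run were enriched (2 of 13) and 15.1% of the others. In wild type 4 of 8 in a run were enriched and 51.9% of the others. Abutting regions in the same run count separately here, as at Stub1 in wild type and Mapkap1 in the knockout-labelled IP.

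The enriched regions in runs belonged to 4 genes, and their sites show how the repeat multiplies the match. Capitals mark 1 of the sites in the run.
Nfatc3 (chr8:106129127-106129155, plus strand): catggtggtgctgcTGCTGCTgcttctgc
Zbtb20 (chr16:43640323-43640351, plus strand): aaggtgctgcttgcTGCTGCTgctgaggt
Grik3 (chr4:125711996-125712024, plus strand): aggtggggtgcagcTGCTGCTgcttcatg
Stub1 (chr17:25830664-25830692, minus strand): gggtgggctgaggtTGCTGCTgctgccac
Nfatc3, a calcium-responsive transcription factor, had a run of 16 bases with 4 overlapping sites and was enriched in both IPs. It had 13 IP and at most 1 input reads in the knockout-labelled pair (log2 4.64), and 11 and at most 1 in wild type (log2 6.12). Grik3, a kainate-type glutamate receptor subunit, had 35 IP and 8 input reads in the knockout-labelled pair, a log2 of 3.07, and no wild-type region with the site. Its run of 12 bases lay outside the region, just before its start, and the nearest site began 9 bases before that start. Zbtb20, a transcription factor of hippocampal development, had 4 IP reads in the knockout-labelled IP and 5 in wild type, where it was just enriched. Stub1, an E3 ubiquitin ligase that works with chaperones, had 5 wild-type reads over abutting regions in a run of 12 bases. The longest runs were not enriched. Mapkap1, a subunit of the mTORC2 kinase complex, had abutting regions in the same run of 78 bases, each with 3 IP reads in the knockout-labelled IP. Runs were measured within 50 bases of a region, which cut this run to 58 bases for the first of them. Klc1, a kinesin light chain, in the knockout-labelled IP and Tacc1, a centrosomal protein, in wild type had runs of 26 bases with 5 and 3 IP reads. Pou3f3, a transcription factor of upper cortical layers, had the most IP reads of any region in a run, 54 in the knockout-labelled IP with 68 input reads and 6 in wild type with 22, and its log2 over input was 0.61 and 0.79.

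**Figure D3:**
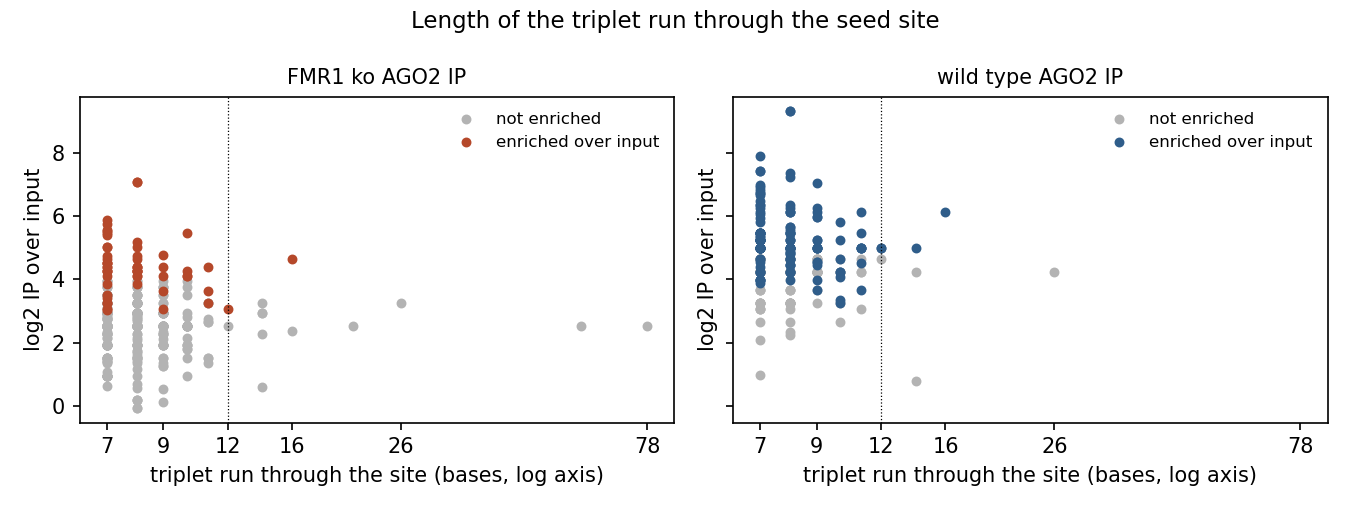
log2 of IP over input (vertical) against the length of the period-3 run through the site in bases (horizontal, log axis), one point per region, for the FMR1 ko AGO2 IP (left) and the wild-type AGO2 IP (right). Runs are measured within 50 bases of the region. Coloured points are enriched and the dotted line marks 12 bases; runs of 12 bases or more hold 13 and 8 regions, of which 2 and 4 are enriched.

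The 10 top genes of each library, ranked by −log10 p, had 7 genes in common. Regions with the site named 452 genes over both libraries, and 115 of these were found in both, 34.2% of the knockout-labelled and 49.8% of the wild-type genes. Enriched regions named 53 genes in the knockout-labelled IP and 127 in wild type, and the 39 shared ones were 73.6% and 30.7% of these. Such shares were not computed for the genes of other 3' UTR regions, so nothing particular to the site is read from them. The overlap of regions with and without the site is given below. The files do not record which miRNA, if any, guided AGO2 to a region. Regions in the annotated 3' UTR of Dvl2, an adaptor of the Wnt receptor Frizzled, led both rankings. They had 71 IP and at most 1 input reads in the knockout-labelled pair (log2 7.09), and 101 and at most 1 in wild type (log2 9.32). The site lay under abutting regions with the same reads. Their midpoints stood 2407 and 2420 bases into a 3' UTR of 2610 bases in the knockout-labelled IP. These regions were 12 and 13 bases long there, against a median of 54 for regions with the site. Short regions with many IP reads over at most 1 input read were also seen at miRNA genes such as Mir15b. Whether the Dvl2 reads came from its mRNA or from another RNA made at that place was not tested.

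These shared genes with high scores encode proteins of several kinds, and those of the cytoskeleton, membranes and junctions are given first. Arhgdia, a GDP dissociation inhibitor, had 61 IP and 2 input reads in the knockout-labelled pair (log2 5.87), and 29 and 3 in wild type (log2 5.94). Tmod2, which caps the slow end of neuronal actin filaments, had 48 and 4 reads in the knockout-labelled pair (log2 4.52), and 26 and 2 in the stronger wild-type region (log2 6.36). Dynll2, a light chain of dynein and myosin V motors, had 53 and 7 reads in the knockout-labelled pair (log2 3.86), and 66 and 15 in wild type (log2 4.80). Dynll2 thus had the most input reads of these genes, 7 and 15. Vat1, a synaptic vesicle membrane protein, had overlapping regions with 33 IP and 3 input reads in the knockout-labelled pair (log2 4.40), and 27 and at most 1 in wild type (log2 7.42). A further overlapping pair of Vat1 regions at the same site had 25 and at most 1 in the knockout-labelled pair (log2 5.58), and 21 and 2 in wild type (log2 6.06). Pld3, a lysosomal protein of neurons, had 17 and at most 1 in the knockout-labelled pair (log2 5.03), and 26 and at most 1 in wild type (log2 7.36). Amotl1, a junction protein that binds YAP, had 17 and 20 IP reads, log2 5.03 in the knockout-labelled IP and 6.99 in wild type.

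Kinases and nuclear factors are given next. Atxn7l3, a subunit of the SAGA deubiquitinase that acts on histone H2B, had 56 IP and 2 input reads in the knockout-labelled pair (log2 5.75), and 38 and at most 1 in wild type (log2 7.91). Dyrk1b, a kinase that promotes quiescence, had 17 IP reads in the knockout-labelled IP and 19 in wild type, log2 5.03 and 6.91. Pim1, a survival kinase, had 18 and 2 reads in the knockout-labelled pair (log2 4.11), and 11 and at most 1 in wild type (log2 6.12). Zfp651, a zinc finger protein, had 14 and 13 IP reads over at most 1 input read each, log2 4.75 and 6.36.

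Further genes stood among the 10 with the highest −log10 p of a library. Cnih2, an auxiliary subunit of AMPA receptors, had 23 IP and at most 1 input reads in the knockout-labelled pair (log2 5.46), and 8 and 3 in wild type (log2 4.08). Irgq, a gene of the immunity-related GTPase family, had 46 IP and 14 input reads in the knockout-labelled pair, where its log2 of 2.66 missed the limit, and 36 and 10 in wild type (log2 4.51), with 3 sites in the region. Retreg2, a reticulon-homology protein of the endoplasmic reticulum, had 12 and at most 1 in the knockout-labelled pair (log2 4.52), and 27 and at most 1 in wild type (log2 7.42).

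Regions with the site recurred between libraries more often than other 3' UTR regions did. In the knockout-labelled IP 35.1% overlapped a wild-type region by at least 1 base, against 24.6% without the site. In the wild-type IP 49.2% overlapped a knockout-labelled region, against 32.3%. Of the 56 enriched knockout-labelled regions with the site, 44 overlapped an enriched wild-type region, 78.6% (65.6 to 88.4), against 67.1% without the site. Of the 138 enriched wild-type regions, 45 overlapped an enriched knockout-labelled region, 32.6% (24.9 to 41.1), against 20.4%. More reads and longer regions go with the site, as above, and their part in the overlap was not tested.

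Overlapping regions with a site in both libraries formed 125 pairs in 110 genes. The log2 over input, knockout-labelled minus wild type, had a median of −1.72 (quartiles −2.31 and −0.95), and 116 of 125 pairs were below 0. The depth ratios alone give −1.72 to a pair with equal IP reads and 1 input read in each library. In 48 of the pairs each input had at most 1 read, so the log2 there was set by IP reads and depth. Only 6 pairs had 5 or more reads in each input, and their median was −0.93. Among the 125 pairs 47 were enriched in both IPs, 38 in wild type alone, 3 in the knockout-labelled IP alone and 37 in neither. These are 37.6%, 30.4%, 2.4% and 29.6%, against 23.9%, 34.7%, 4.97% and 36.4% of 2758 overlapping pairs of 3' UTR regions without the site. Shares are of pairs, not genes. The 47 lay in 39 genes, since abutting regions can form several pairs with the same reads, as at Dvl2. Pairs enriched in wild type alone, where fewer reads were needed, outnumbered the reverse with and without the site. The 3 were Bicd1, Pcgf3 and Cdk5r1, named here after their values were seen. Cdk5r1, the p35 activator of Cdk5 in neurons, had 10 IP and 2 input reads in the knockout-labelled pair, and 4 and 3 in wild type. Cnih2 had the largest difference above 0, 1.38.

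**Figure D4:**
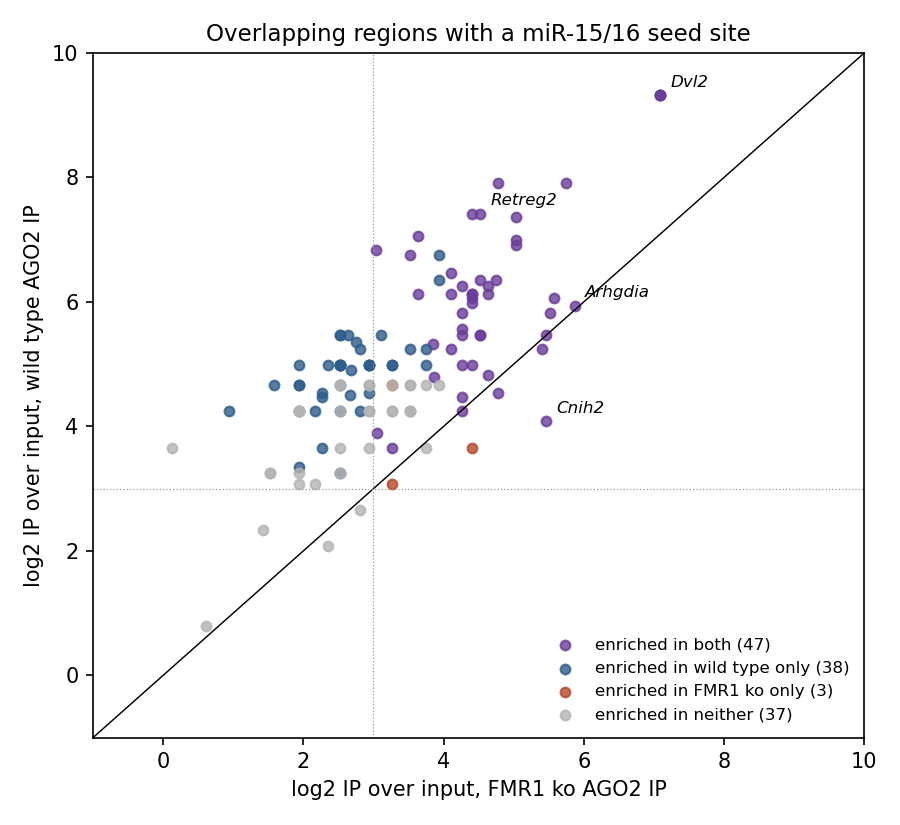
log2 of IP over input in the wild-type AGO2 IP (vertical) against that in the FMR1 ko AGO2 IP (horizontal) for the 125 overlapping pairs with a miR-15/16 site, coloured by the library in which they are enriched. The line marks equal values and dotted lines the limit of 3; 116 pairs have the lower value in the FMR1 ko AGO2 IP, where the depths of the libraries give a lower log2 at the same reads.

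The authors' deposited table sets the IPs against each other directly, on wild-type regions. Its log2 runs wild type over knockout-labelled, so a positive value means more signal in wild type, and equal read counts give 1.19 because the knockout-labelled IP was deeper. Its regions were called in wild type, which favours positive values in every class. The median log2 was 1.67 over the 266 regions with the site, 1.93 over 3' UTR regions without it and 2.77 over all regions. With 20 or more reads over both IPs it was 1.19 for 52 regions with the site, 0.74 for 865 without it and 0.56 for 3615 of all kinds. At this limit 45 of the 52 were above 0. The order of the classes thus turned round with the limit on reads.

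Past limits of 3 for the −log10 p and 1 for the log2 in the authors' deposited table were 14 regions with the site in 13 genes. That was 5.26% of 266 (2.91 to 8.67), against 3.77% of 3' UTR regions without the site and 3.39% of all regions, a share near the background. Eif2b2, a subunit of the exchange factor of translation initiation factor eIF2, had at most 1 knockout-labelled and 16 wild-type reads (log2 5.19 in the authors' deposited table). Retreg2 had 13 and 27 reads, and Arf3, a Golgi GTPase, 13 and 24. These read counts are without scaling for depth, and the wild-type count was the higher in all 14.

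Further genes on that side were spread over a wide range of reads. Faap100, of the Fanconi anaemia core complex, had at most 1 knockout-labelled and 10 wild-type reads, Rab35, an endosomal GTPase, 2 and 11, Lnpep, an aminopeptidase of GLUT4 vesicles, 3 and 12, and Cdc37l1, a co-chaperone of Hsp90, 8 and 17. The Rab35 site lay in annotated coding sequence within the window of a 3' UTR region, next to the stop codon. Abutting Dvl2 regions with the same 72 and 101 reads were past the limits as well, and so was Pld3 with 18 and 26. Their log2 values were 1.68 and 1.72 in the authors' deposited table. Which RNA gave the Dvl2 reads was not tested, as said above. Dmtn, Kcnc4 and Wdr47 were past them too. Of the 13 genes, Eif2b2, Faap100, Arf3, Rab35, Lnpep and Wdr47 had no region with the site in the knockout-labelled IP.

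The table lists a −log10 p of 0 wherever the log2 is below 0, so the lower side was counted by size, at a log2 of −1 or less and 20 or more reads. It held 1 of 52 regions with the site, against 1.73% of 3' UTR regions without it and 8.38% of all regions. This was Bicd1, a dynein adaptor, with 20 knockout-labelled and 4 wild-type reads (log2 −1.13, the authors' deposited table). The next lowest values were those of Usp42, a deubiquitinase (20 and 6 reads, log2 −0.55), Tuba1a, the main alpha-tubulin of newborn neurons (16 and 5, −0.49), and Nynrin (22 and 7, −0.46). Cnih2 followed with 23 and 8 reads (log2 −0.34), Map2k7, a kinase upstream of JNK, with 19 and 7 (−0.25), and Pou3f3 with 16 and 6 (−0.23). Ogt, which adds O-GlcNAc to proteins, had 13 and 7 reads and a log2 of 0.29, Atxn7l3 67 and 38 with 0.37, and Pim1 19 and 11 with 0.40.

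**Figure D5:**
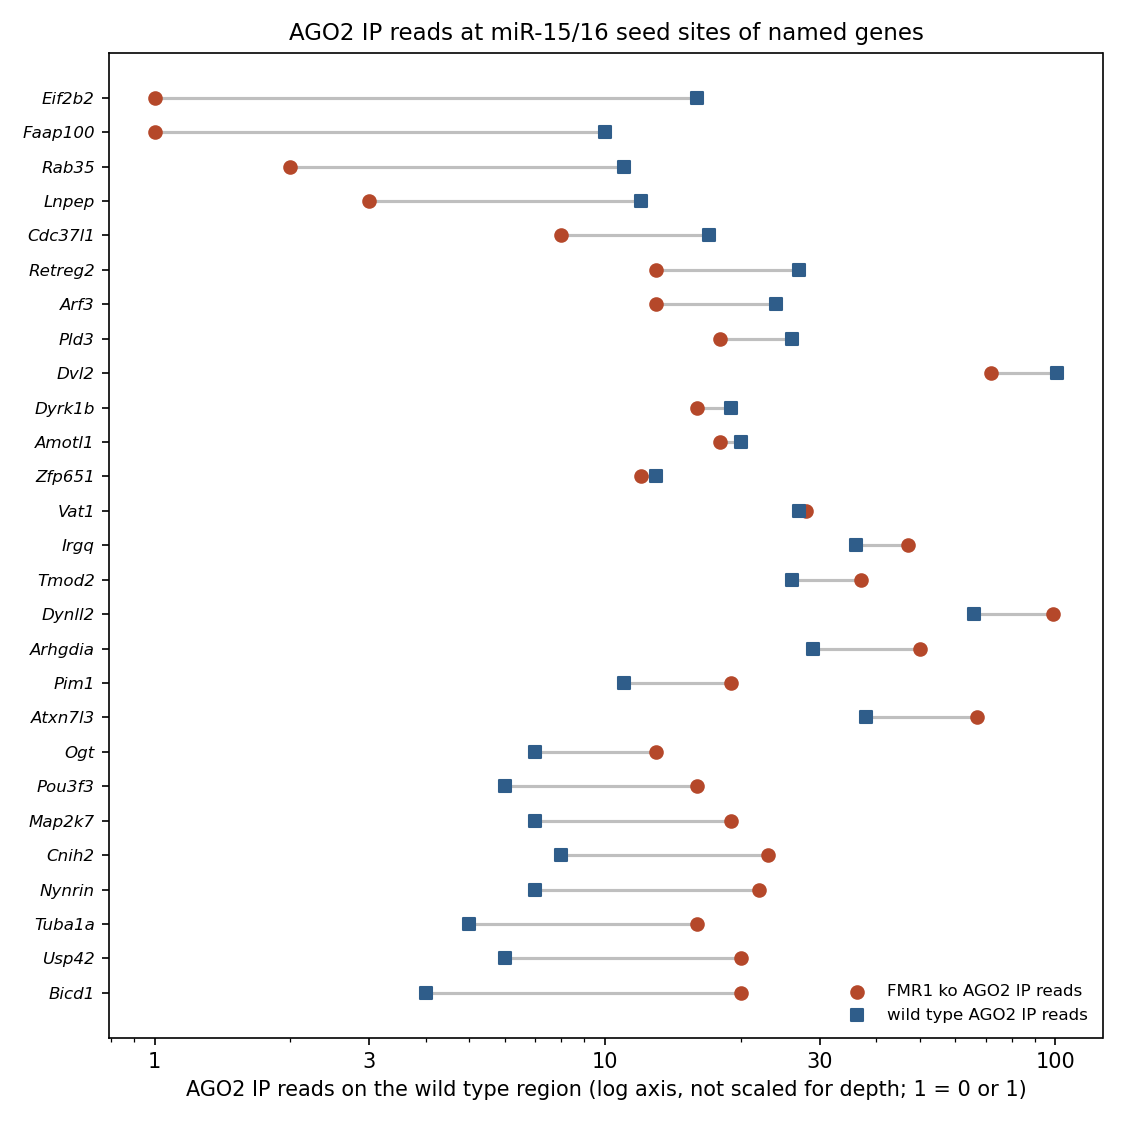
AGO2 IP reads on the wild-type region for named genes (log axis, not scaled for depth), FMR1 ko AGO2 IP as circles and wild-type AGO2 IP as squares, ordered by the log2 in the authors' deposited table. Depth of the knockout-labelled over the wild-type library is 2.278; wild-type reads are the higher from Eif2b2 (at most 1 and 16) down to Zfp651 (12 and 13) and the lower from Vat1 to Bicd1 (20 and 4).

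Lists of genes are counted next. Over all genes with any 3' UTR region, 7.58% of 4433 in the knockout-labelled IP and 6.36% of 3633 in wild type had a region with the site, and 1.2% and 3.5% an enriched one. Of 19 classical miR-15/16 targets 7 had any 3' UTR region in each IP, and 3 of these 7 in the knockout-labelled IP and 2 of 7 in wild type had a region with the site. The lists are small, and nothing particular to them is read from these counts. Arl2, a small GTPase of tubulin folding and mitochondria, had 13 IP and 4 input reads in the knockout-labelled pair, where its log2 of 2.64 was below the limit, and 14 and 2 in wild type, where it was the only enriched gene of the list (log2 5.47). Its short 3' UTR held 4 sites under the wild-type regions. Ccnd2 (cyclin D2) and Cdc25a, the phosphatase that opens the way into S phase, had 6 and 4 IP reads in the knockout-labelled IP and no wild-type region with the site. Smad7, an inhibitor of TGF-beta signalling, had 4 reads in wild type alone.

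Of 30 genes on the cell cycle list, 9 in the knockout-labelled IP and 10 in wild type had any 3' UTR region. Of these 3 and 2 had one with the site, 1 of them enriched in each. These were Cdk5r1, the activator of Cdk5 in neurons named above, in the knockout-labelled IP and Btg2 in wild type. Btg2, an antiproliferative factor of neurogenic progenitors, had 6 IP and at most 1 input reads (log2 5.25). Both sites are 8mers that also hold the miR-103 and miR-107 site. Of 31 genes of Wnt, TGF-beta and BMP signalling 18 and 20 had any 3' UTR region, 3 and 4 had one with the site, and none was enriched in either library. Acvr2a, an activin receptor, had 7 and 4 IP reads, Axin2, a negative feedback gene of Wnt, 3 in wild type, and Tgfbr1 3 in wild type. Dvl2 was not on that list.

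Of 26 genes of the silencing machinery, 4 of the 19 with any 3' UTR region in the knockout-labelled IP had one with the site, and none of 18 in wild type. They were Ago1, Ago2, Ago3 and Cpeb2, the first 3 Argonautes and the last a regulator of poly(A) tails. Their IP reads were 6, 5, 3 and 5, and none was enriched. Of 40 synaptic and channel genes, 33 and 30 had any 3' UTR region, and Camk2b, a subunit of the CaMKII kinase, was the only 1 with the site. It was enriched in both, with 9 IP and at most 1 input reads in the knockout-labelled pair (log2 4.11), and 12 and 2 in wild type (log2 5.25). Of 41 transcription and chromatin genes 32 and 30 had any 3' UTR region, and 2 and 1 had one with the site. Bcl11b, a factor of corticospinal neurons, had 7 and 2 reads in the knockout-labelled pair, and 13 and 2 in wild type, where it was enriched (log2 5.36), and Zfhx3, a homeobox factor, had 6 IP reads in the knockout-labelled IP.

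Of 38 cytoskeleton and axon guidance genes, 3 of the 34 with any 3' UTR region in the knockout-labelled IP had one with the site, and none of 30 in wild type. Ephb2, Plxna4 and Map1a had 7, 4 and 3 IP reads and none was enriched. Of 30 FMRP-bound mRNAs 23 and 22 had any 3' UTR region. Bsn, a presynaptic scaffold, had 6 IP reads in the knockout-labelled IP, and App, the amyloid precursor protein, 4 in wild type, neither enriched.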

How the data were processed

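Measured were 2 AGO2 IP libraries, each scored against its input. Per the labels' protocols, adapters were trimmed (Cutadapt 1.15), reads on repeats removed, the rest mapped to mm10 (STAR 2.6.0c) and duplicates removed (UMI tools). Clusters were called in each IP (CLIPper 1.4), so they are those of single samples. The deposited files give for each region the authors' log2 of IP over input, scaled to library totals, and the authors' −log10 p, which stops at 400. How the series table was made is not given in the sources used here. It is the authors' log2 and −log10 p of wild type against the knockout-labelled IP.

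Reads were recovered from both scores. The log2 was a constant plus the log2 of a whole-number ratio (denominators up to 1000) in 99.97% of knockout-labelled, 99.97% of wild-type and 99.96% of series regions, within a tolerance of 1% on the −log10 p. Recovery was tested on simulated data. GENCODE gene models of mm10 gave the 3' UTRs, and 44940 of 44973 annotated start codons read ATG. Intervals are exact (Clopper-Pearson, 95%) and cover counting error only.

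Genes were named by rule: up to 12 enriched in overlapping regions of both IPs, the top 10 by −log10 p in each IP, the 10 highest past the limits and the 10 lowest with 20 or more reads in the series table, up to 10 enriched in triplet runs, and up to 4 per list. The 8 lists were miR-15/16 targets, cell cycle, Wnt, TGF-beta and BMP signalling, silencing complex, synapse and ion channels, cytoskeleton and axon guidance, transcription and chromatin, and FMRP-bound mRNAs. Members and lists were chosen with earlier results of these data known. miR-124 sites were not analysed here. Some genes and a site that the rule names are not reported here. Alternatives covered the window, 8mers, limits on reads and scores, overlap, run length and centring. Python 3.11.15 with SciPy 1.17.1, pandas 2.3.3 and pysam 0.24.0 was used.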

Additional observations from a re-analysis of the deposited data

How the results depend on the processing

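Values are given for the knockout-labelled IP and then for wild type. Without the 25-base extension there were 229 and 163 regions with a site, the overlap with the other library was 41.5% and 55.8%, and 58.3% of wild-type regions were enriched. With 8mers alone there were 63 and 57 regions, 59.6% of wild-type regions were enriched, the overlap in the knockout-labelled IP was 41.3%, triplet runs held 1.59% and 0.0%, and 4 regions were past the limits in the authors' deposited table. With a limit of 10 IP reads there were 72 and 50 regions, of which 70.8% and 100% were enriched and 79.2% and 90.0% overlapped the other library. With a limit of 20 reads over both IPs 8 regions were past the limits in the authors' deposited table, where the median log2 was 1.19. Stricter limits on the scores left 5.95% and 25.9% enriched and 3 regions past the limits in that table. Overlap with enriched regions alone was 22.7% and 18%. Triplet runs of 9 bases or more held 27.6% and 26.7% of regions, and runs of 15 or more 1.62% and 0.752%. Centred on 3' UTR regions without the site, the median log2 of the authors' deposited table was −0.25, against 1.67 uncentred, and with the limit of 20 reads, a setting chosen after the data were seen, it was 0.45. The cause of these moves was not tested beyond the construction of each setting. In 58 further recomputed values a count was within 1.5 times, a share within the exact interval and a median within the interval of the value reported. No paired analysis was possible because each genotype had 1 IP library, and no library could be left out. Few reads per region limit what can be seen, since with at most 4 IP reads no region could be enriched.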
